A study of Homo sapiens with 26 samples.

Results

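Monomethylation of lysine 4 of histone H3 (H3K4me1) formed 375 unusually long domains in untreated HCT116 cells, a colorectal cancer line with wild-type p53. A domain was a region in which each of the 2 peak lists of untreated cells held a single H3K4me1 peak of at least 20 kb. These 375 domains were 0.393% of the 95519 regions obtained by merging both lists, and 7.47% of the summed length of the 76724 regions called in both. The domains were chosen by the lengths of untreated H3K4me1 peaks, so those lengths are given as a description throughout.

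H3K4me1 marks primed and active enhancers, and acetylation of lysine 27 (H3K27ac) marks enhancers and promoters that are active. Most H3K4me1 peaks flank a promoter or sit on an isolated enhancer, whereas long continuous stretches usually lie over clusters of enhancers, often within or beside genes that define the cell type. p53 is a transcription factor that is held inactive by HDM2, and Nutlin-3a blocks that interaction.

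All cells were HCT116 or its derivative named for RAD21, a subunit of the cohesin ring that holds chromatin loops. Parental cells (WT) received DMSO (0 h) or 10 µM Nutlin-3a for 1 h or 10 h, and both marks were measured at each time. In the RAD21 line, in which the study's methods describe an auxin-inducible degron on RAD21, H3K27ac was measured at 0 h and 1 h. The study describes profiling H3K27ac in this line after RAD21 was degraded with the auxin analogue 5-Ph-IAA and p53 was activated. The labels of these samples name DMSO or Nutlin and no degrading agent, and their peak names carry KD. Each group had 2 libraries with 1 peak list each, which gave 6 H3K4me1 lists and 10 H3K27ac lists. The titles number the libraries as BR1 and BR2 and the study calls its replicates biological. The p-values thus measure the spread between samples, pooled over all groups of a fit and not over the compared groups alone.

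The lists differed before any domain was considered. H3K4me1 lists held 84492 to 92943 peaks over 168 to 212 Mb, and H3K27ac lists 31637 to 49127 peaks over 30.7 to 66.6 Mb. They give no read counts. The study's methods set a minimum number of reads for each mark, and the depth of each library was not used here. Peak names lacked the word input in 3 H3K27ac lists, both of WT 0 h and replicate 1 of WT 1 h, and held it in the other 7. The 3 lists without it covered 30.7 to 31.9 Mb and the 7 others 49.1 to 66.6 Mb, so H3K27ac cover is given with this naming beside it. The longest H3K27ac peak was 3905 to 4210 bp in the 3 lists and 39572 to 68414 bp in the 7 others. High cover of a domain of at least 20 kb thus needed several separate peaks in the 3 lists. Naming and treatment cannot be told apart for WT 10 h against 0 h. The numbers in peak names did not always match the labelled replicate: the H3K4me1 lists of 1 h carry 2 and 3, replicate 2 of the RAD21 line at 1 h carries 3, and replicate 2 of that line at 0 h carries both BR2 and BR3, so whether this list pools 2 libraries is not known. The labelled cell type was checked at promoters of 10 colorectal epithelial genes, among them CDH1, EPCAM, KRT8 and CDX2, and all 10 carried an H3K27ac peak in every list. No promoter of 5 blood, 5 fibroblast or 3 endothelial genes did in any list, and of 4 liver genes only SERPINA1 did, in both WT 10 h lists.

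The strongest acetylated sites of the longest domains are shown because H3K27ac marks the active part of a domain. The 100 bases on each side of the summit of the strongest H3K27ac peak (replicate 1 of WT 0 h) in the 4 domains with the longest mean peak over both untreated lists are printed here on the plus strand of GRCh37, with CG pairs in capitals. The site in the PCDH7 domain held 1 CG pair, that in HMGA2 2, that in the domain over BLID 6 and that in SYTL3 3. The PCDH7, HMGA2 and SYTL3 sites were intronic and lay 32789, 123465 and 80253 bp from the nearest protein-coding start. The BLID site lay in the long non-coding gene MIR100HG, on the minus strand, 86090 bp from that of BLID. All 4 summits were under a peak in all 10 H3K27ac lists.
PCDH7 chr4:30754726-30754926: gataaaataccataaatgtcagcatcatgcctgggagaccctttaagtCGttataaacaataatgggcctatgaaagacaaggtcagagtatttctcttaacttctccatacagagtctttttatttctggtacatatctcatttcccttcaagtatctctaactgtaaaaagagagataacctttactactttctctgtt
HMGA2 chr12:66342268-66342468: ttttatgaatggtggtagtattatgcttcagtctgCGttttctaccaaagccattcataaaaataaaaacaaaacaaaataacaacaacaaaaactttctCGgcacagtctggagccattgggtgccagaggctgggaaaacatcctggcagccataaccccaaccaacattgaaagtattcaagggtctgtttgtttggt
BLID chr11:122072913-122073113: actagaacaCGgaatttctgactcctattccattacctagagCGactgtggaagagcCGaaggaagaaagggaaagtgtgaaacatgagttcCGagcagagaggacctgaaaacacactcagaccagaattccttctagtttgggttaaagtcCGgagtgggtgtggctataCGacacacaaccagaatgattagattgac
SYTL3 chr6:159151239-159151439: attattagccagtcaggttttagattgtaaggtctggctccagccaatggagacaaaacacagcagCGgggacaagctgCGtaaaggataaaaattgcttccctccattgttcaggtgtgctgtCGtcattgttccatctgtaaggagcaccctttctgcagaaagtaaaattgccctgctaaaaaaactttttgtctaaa

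Over all 1886 such windows in the domains (replicate 1 of WT 0 h), the median number of CG pairs was 3, against 4 at 2543 summits in regions with 10 to 20 kb peaks in both lists and 6 at the 29543 summits elsewhere. The AP-1 motif TGANTCA, which is its own reverse complement and cannot overlap a CG pair, was in 6.95% of the windows in domains, 7.83% of those in the 10 to 20 kb class and 7.02% of all windows. None of the 1886 windows, the printed ones included, held a full p53 response element without spacer, which was found in 0.0648% of all 33972 windows. Whole domains had a GC content of 45.1% and 14.1 CG pairs per kb, below the 47.6% and 17.4 of the 10 to 20 kb class and above the genome's 40.9% and 9.85. Single domains ranged from 32.7% GC in PRKACB, a catalytic subunit of protein kinase A, to 65.6% in PLEC, a cytoskeletal linker.

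The domains held 32 annotated microRNA genes, in 28 domains (7.47% of domains). In the 10 to 20 kb class 3.38% of regions held such a gene, but per megabase the domains were no richer, at 2.13 against 2.36 in that class and 1.07 in the genome. Mature sequences were matched in RefSeq (GRCh38.p14 table) for 23 of the 32. Those printed here were chosen after the values were seen because 2 of the 10 longest domains hold them, with the seed (bases 2 to 8) in capitals. miR-125b, let-7a and miR-100 are processed from MIR100HG, whose hairpins lie at chr11:121970465-121970552, chr11:122017229-122017301 and chr11:122022937-122023016 on the minus strand. miR-221 and miR-222 are processed from MIR222HG at chrX:45605585-45605694 and chrX:45606421-45606530, also on the minus strand, and share their seed. Peak cover of these loci does not measure the microRNAs.
miR-125b-5p: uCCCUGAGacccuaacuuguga
let-7a-5p: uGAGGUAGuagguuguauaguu
miR-100-5p: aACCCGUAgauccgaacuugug
miR-221-3p: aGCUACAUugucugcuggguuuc
miR-222-3p: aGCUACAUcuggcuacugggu

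The median domain spanned 33513 bp, with quartiles of 26102.5 and 47758 bp and a range of 20252 to 160547 bp. There were 80 domains of at least 50 kb and 11 of at least 100 kb. Both untreated lists gave nearly the same peak length in most domains, with a median ratio of the longer to the shorter of 1.06, but in 36 domains they differed by more than 1.5 times. At the limit, AURKB (21698 and 20043 bp in replicates 1 and 2) and DNAJB6 (20063 and 20401 bp) were just inside it. PRKAG2 (20592 and 19993 bp) and a region in SRGAP1 (19974 and 20041 bp) were just outside it. Long peaks were strong peaks, since the median fold enrichment of peaks of at least 20 kb in untreated cells was 8.57 and 8.55, against 3.78 and 3.84 for all peaks of the same lists.

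The domains lay mainly along gene bodies. Protein-coding genes covered 67.4% of their bases, a share like that of the 10 to 20 kb class (67.3%) and above that of all regions called in both lists (61.8%). Of the 375, 171 (45.6%) lay wholly within coding genes and 76 (20.3%) touched none. Only 3.07% of bases were exonic, against 4.89% in the 10 to 20 kb class. The start site of a coding gene was in 160 domains (42.7%), against 36.3% of the 10 to 20 kb class and 12.1% of all regions, which are shorter.

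A domain was named by the coding gene that shares most bases with it, its leading gene. Leading genes were long, with a median of 99259 bp against 27219 bp for all coding genes. A long domain meets long genes more often and shares more bases with them, so a longer median comes in part with the definition. The median domain covered 32.8% of its leading gene. In 105 domains at least 50% of the leading gene was covered, and in 38 at least 90%. HMGA2, an architectural chromatin protein of embryonic and tumour tissue, was covered to 95.03%. SMAD3, the signal transducer of TGF-β, was covered to 89.5%, and TCF7L2, the main Wnt-responsive transcription factor of the gut, to 73.8%.

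Domains that spanned the start of their leading gene were described by their reach on either side of that start. Of 104 such domains, 82 were longer downstream, with a median reach of 26024.5 bp downstream of the start, past the gene's end where the gene is shorter, and 7587 bp upstream of it. The leading gene is by definition the one that shares most bases, which favours the gene on the longer side, so this asymmetry is a description only. The reach was at least 20 kb downstream in 62.5% of them and upstream in 20.2%. Another 165 domains lay in the body of the leading gene with its annotated start outside, and 30 passed its end. PALLD, an actin-bundling protein, had the longest downstream reach (123354 bp), and the domain over BLID the longest upstream reach (95243 bp), where MIR100HG lies.

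**Figure D1:**
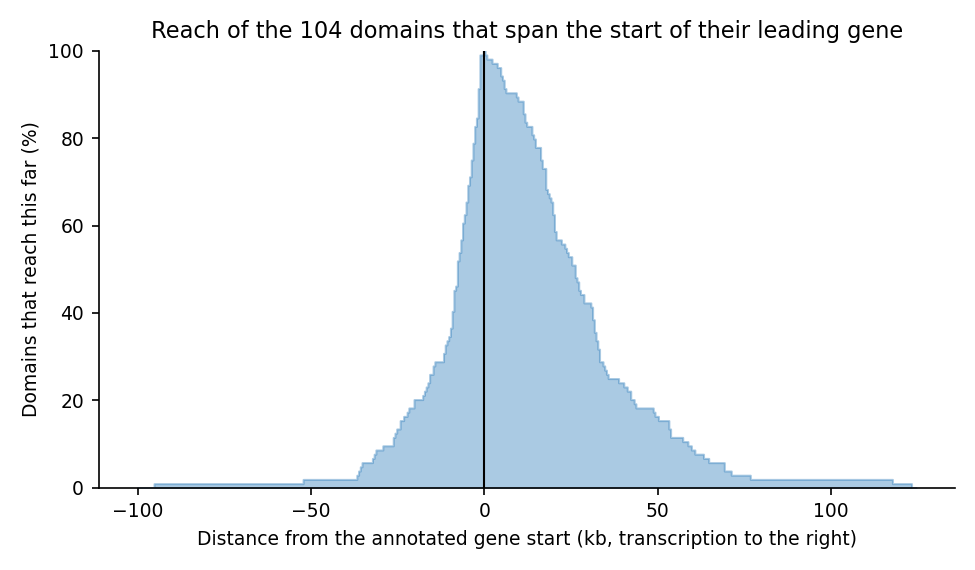
Percent of the 104 domains spanning the start of their leading gene that reach each distance from that start (kb, transcription to the right). At 20 kb the filled profile is at 20.2% upstream and 62.5% downstream.

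Of 76 domains with no coding gene, 50 touched a long non-coding RNA gene. Such genes were touched by 157 of all domains (41.9%), against 29.95% of the 10 to 20 kb class, whose regions are shorter. Per megabase the domains held fewer of these genes, 15.3 against 22.5 in that class and 6.54 in the genome. The domains near KLF14 overlapped LINC-PINT, those near MYC overlapped PVT1, and the 109374 bp domain near DIPK2B overlapped MIR222HG.

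Genes of the epithelial cell state were among those touched. In all, 373 of 20136 coding genes (1.85%) shared bases with a domain. Of 22 adhesion and growth factor receptor genes 8 did (36.4%), namely CDH1 (E-cadherin), CTNND1 (p120-catenin), the integrins ITGA6 and ITGB4, and the receptors EGFR, MET, EPHA2 and TGFBR2. The MET gene, which encodes the receptor of hepatocyte growth factor, held 2 domains. Of 21 genes of MAPK feedback and AP-1 4 were touched (19.0%), with SPRED2, a RAS-MAPK inhibitor, and JUNB, an AP-1 subunit, among them. TGF-β and BMP genes gave 3 of 14 (21.4%; SMAD3, SMAD6 and ID1), intestinal transcription factors 3 of 18 (16.7%; ELF3, EHF and TCF7L2), and Wnt genes 2 of 22 (9.09%; RNF43 and CD44). The receptor list also has long genes, with a median of 62831 bp, and the part of gene length in these counts was not tested. None of 20 ribosomal protein genes was touched.

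Of 41 canonical p53 target genes 3 (7.32%) shared bases with a domain, against the 1.85% of all coding genes. They were GDF15, a stress-induced secreted factor, TGFA, an EGFR ligand, and BCL2L1, which encodes the survival factor BCL-XL. The domain with GDF15 spans 41054 bp on chr19, has PGPEP1 as its leading gene and also holds MIR3189. Its longest overlapping H3K4me1 peak was 40945 and 40829 bp long in the WT 0 h lists, 34345 and 40553 bp at 1 h, and 33346 and 54690 bp at 10 h. The 10 h lists thus lay on either side of the untreated ones. In BCL2L1 the lengths were 73720 and 68793 bp at 0 h, 69740 and 62610 bp at 1 h, and 69955 and 69654 bp at 10 h. TGFA stayed between 20983 and 22990 bp in all 6 lists.

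Over Nutlin time most domains stayed long. The H3K4me1 peak that overlapped a domain best was still at least 20 kb long in 349 and 333 of the 375 at 1 h (replicates 1 and 2), and in 307 and 342 at 10 h. In 277 domains (73.9%) it was at least 20 kb in all 4 later lists, and in 4 domains in none. Its median length was 31054 and 28824 bp at 0 h, 31055 and 29614 bp at 1 h, and 26564 and 29462 bp at 10 h. Replicate 1 at 10 h stood lowest, and it was also the H3K4me1 list with the smallest total, 168 Mb.

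**Figure D2:**
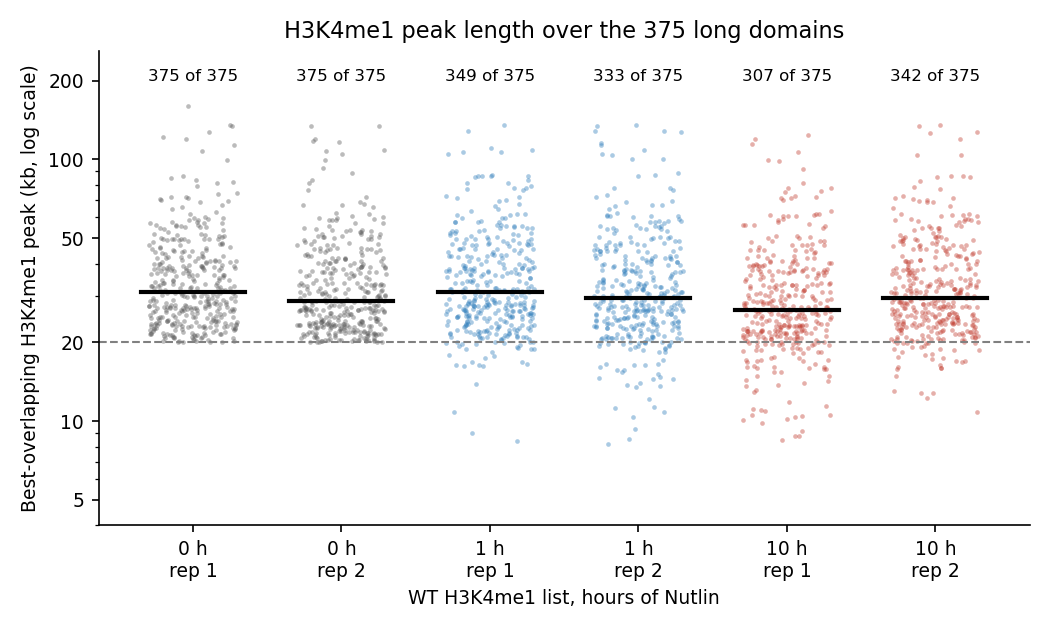
Length of the best-overlapping H3K4me1 peak (kb, log axis) in the 375 domains, for each of the 6 WT lists, with the 20 kb limit marked. Medians run from 26564 bp in replicate 1 of 10 h to 31055 bp in replicate 1 of 1 h, and no domain of the 0 h lists lies under the limit because the lengths in these lists chose the domains.

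The best peak was shorter in both 1 h lists than in both 0 h lists in 73 domains, longer in 70, and overlapping in 232. Over all 8363 regions of at least 5 kb called in both untreated lists, the background was 14.4% shorter and 24.8% longer. At 10 h the best peak was shorter in 120 domains, longer in 25 and overlapping in 230 (background 28.5% and 7.39%), and 37 domains were shorter at both times. The median log2 ratio of lengths was −0.01 at 1 h and −0.08 at 10 h. In 6 domains at 1 h and 13 at 10 h both later lists were shorter than both 0 h lists by more than 1.5 times. The share over all regions was not counted for this limit or for the 37 domains. Since the domains were chosen for length at 0 h, some shortening in any other list comes with the choice, and these counts carry no test and nothing is read from them.

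Long peaks picked in 1 untreated list and followed in the others show how much of that loss is present without Nutlin. Of 508 long peaks in replicate 1 of 0 h, 75.2% (95% Wilson interval 71.3 to 78.8%) were at least 20 kb in the other untreated list. The share was 84.1% and 77.8% in the 1 h lists and 65.0% and 77.2% in the 10 h lists. Of 426 picked in replicate 2, 91.1% were still long in replicate 1, 91.3% and 84.98% at 1 h, and 75.6% and 86.4% at 10 h. The mean share was 83.1% in the other untreated list (75.2 to 91.1% over 2 combinations), 84.5% at 1 h (77.8 to 91.3% over 4) and 76.0% at 10 h (65.0 to 86.4% over 4). The combinations reuse the same 2 lists at each time, so they are not independent and carry no SD. The 3 ranges overlapped. Peaks picked at 10 h and followed back to 0 h were kept at 87.3%, and peaks picked at 1 h at 71.6%. The total length of the followed list relative to the list of choice moved with these shares, from 0.856 to 1.19.

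**Figure D3:**
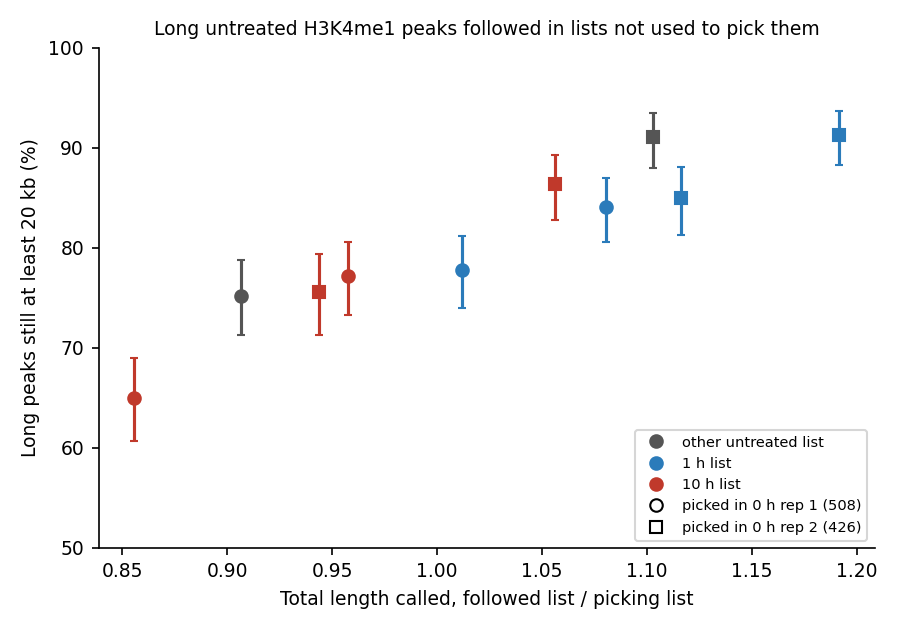
Percent of long H3K4me1 peaks, picked in replicate 1 (circles) or replicate 2 (squares) of 0 h, that were still at least 20 kb in each list followed, against the total length of that list relative to the list of choice, with 95% Wilson intervals. Points further right are mostly higher, and the lowest is replicate 1 of 10 h for peaks picked in replicate 1 (65.0%).

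Splitting was counted in the same lists. The domain was in 1 piece in 284 and 233 cases in the 0 h lists, 221 and 205 at 1 h, and 126 and 198 at 10 h. At 1 h, 32 domains (8.53%) were in more pieces in both lists than in either 0 h list. At 10 h there were 58 (15.5%), with 11 at both times. Fewer pieces than in either 0 h list were seen in 3 domains at 1 h and 1 at 10 h. The share over all regions was not counted. The domains were chosen for long single peaks at 0 h, so some splitting comes with the choice and nothing is read from these counts. Gaps were measured inside the part of each domain that was under a long peak in both 0 h lists. They were short, with medians of 1235 and 1396 bp at 1 h and 1121 and 1105 bp at 10 h. Replicate 1 of 10 h had 204 such gaps and replicate 2 had 75, and 21.1% and 58.7% of these overlapped a gap of the other list. Bases within 1 kb of a start site made up 4.58% and 2.65% of gap bases at 1 h and 5.71% and 6.42% at 10 h. They were 4.03% of the bases of the part in which gaps were measured.

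The change from 1 h to 10 h, which the choice of domains did not use, was tested with limma on the percent of each region's bases under H3K4me1 peaks. None of 374 domains passed an adjusted p of 0.05, as for all 8356 regions of at least 5 kb (background 0% higher and 0% lower). At an unadjusted p under 0.05 there were 20 domains (5.35%) and 988 of all regions (11.8%). The median difference was −0.93 percentage points in the domains and −2.86 over all regions. In simulated data this fit recovered 0% of changes of 10 percentage points and 37% of changes of 30 points.

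Single domains showed the range of these changes. The 3 lowest ratios of peak length at 10 h to that at 0 h were at SYNJ2, an inositol phosphatase, LARP1, a regulator of ribosomal protein mRNAs, and MAFG, a small MAF factor. At LARP1 the best peak was 27905 and 27168 bp at 0 h, 26768 and 27812 bp at 1 h, and 8452 and 17628 bp at 10 h, so only the 10 h lists stood apart. At MAFG it went from 23393 and 23027 bp over 16258 and 15724 bp to 10523 and 10815 bp, and no 2 times overlapped. SYNJ2 went from 30241 and 24210 bp to 10964 and 12242 bp at 10 h. At 1 h the lowest ratios were at SRGAP1, CFAP298-TCP10L and DNAJB12, a chaperone cofactor of the endoplasmic reticulum. The SRGAP1 peak was 22308 and 21993 bp at 0 h and 9050 and 8168 bp at 1 h, but 10358 and 22332 bp at 10 h.

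The highest ratios included a fusion of neighbours. The 2 neighbouring domains in PDE4B, a cAMP phosphodiesterase, had best peaks of 24997 and 22952 bp and of 26697 and 27831 bp at 0 h, and a joint peak of 54574 and 54232 bp at 1 h and 55978 and 54657 bp at 10 h. This join was present in all 4 later lists. Its absence from both untreated lists follows from the rule, since an untreated peak across the gap would have made them 1 domain. The domain at chr11:5504101-5528596 lies in ENSG00000239920, a gene of 424043 bp. It holds annotated transcript starts of HBE1, HBG2 and the olfactory receptor gene OR52D1, which need not be the main starts of these genes. Its best peaks were 24307 and 23480 bp at 0 h, 86156 and 86490 bp at 1 h, and 21076 and 23762 bp at 10 h. Both 1 h lists thus stood above all other lists. Near SMURF2, a ubiquitin ligase, the best peak was 26221 and 23333 bp at 0 h, 80925 and 78061 bp at 1 h, and 78067 and 23423 bp at 10 h, where the replicates disagreed. In PVT1 near MYC the 1 h lists gave 48753 and 128390 bp, against 39205 and 26884 bp at 0 h.

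Among the 10 domains with the longest mean peak over both untreated lists, some kept their length and others broke. The first PCDH7 domain (chr4:30738555-30886709), in a gene for a protocadherin, had peaks of 135726 and 134466 bp at 0 h, 134932 and 134583 bp at 1 h, and 123689 and 134934 bp at 10 h. The third PCDH7 domain went from 99326 and 99420 bp at 0 h to 110839 and 115641 bp at 1 h and 47528 and 68500 bp at 10 h. The longest single untreated peak, in TCF7L2 (chr10:114712062-114872608), had 160493 bp in replicate 1 of 0 h only, and the best peak there was 62243 bp in replicate 2, 63310 and 68563 bp at 1 h, and 56043 and 85430 bp at 10 h. Its length thus rests on 1 list. SMAD3 had 113065 and 116331 bp at 0 h and 119791 and 125643 bp at 10 h. The domain over BLID stayed between 114176 and 128566 bp in all 6 lists.

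**Figure D4:**
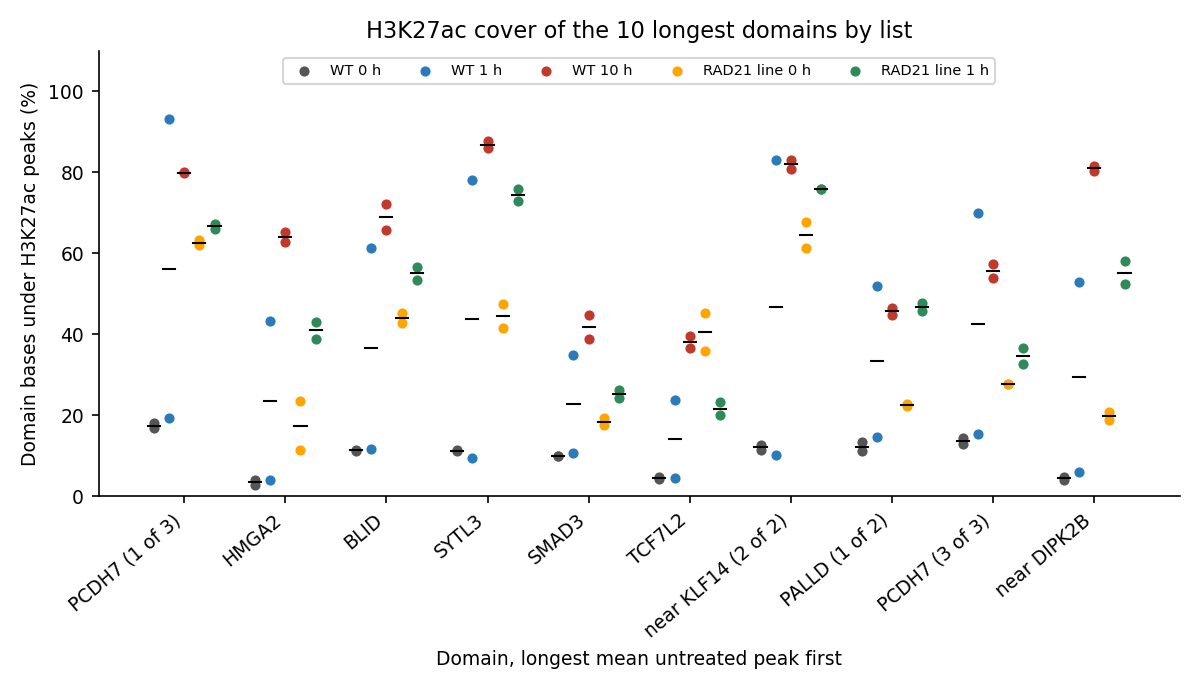
H3K27ac cover (percent of bases under peaks) of the 10 domains with the longest untreated H3K4me1 peaks, by group, with 1 dot per list and a bar at the mean of 2 lists. Both WT 10 h lists lie above both WT 0 h lists in each of the 10, and the 2 WT 1 h dots lie far apart in each (19.3% and 93.1% in the first PCDH7 domain).

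Inside the domains H3K27ac peaks covered 12.9% and 12.7% of bases in the median domain of the WT 0 h lists. At 1 h the cover was 13.1% and 44.5%, and at 10 h 46.6% and 45.9%. In the RAD21 line it was 29.2% and 31.3% at 0 h and 41.2% and 42.4% at 1 h. The 3 low lists were the 3 whose peak names lack the word input, and the WT 1 h group mean of 28.8% ± 22.2 (SD, n = 2) stands for neither of its lists. At least 50% of bases were covered in 0 domains of the 3 low lists, in which no peak was longer than 4210 bp. The count was 161 to 167 domains in the 3 other WT lists. In the RAD21 line it was 60 and 70 domains at 0 h, and 122 and 135 at 1 h.

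**Figure D5:**
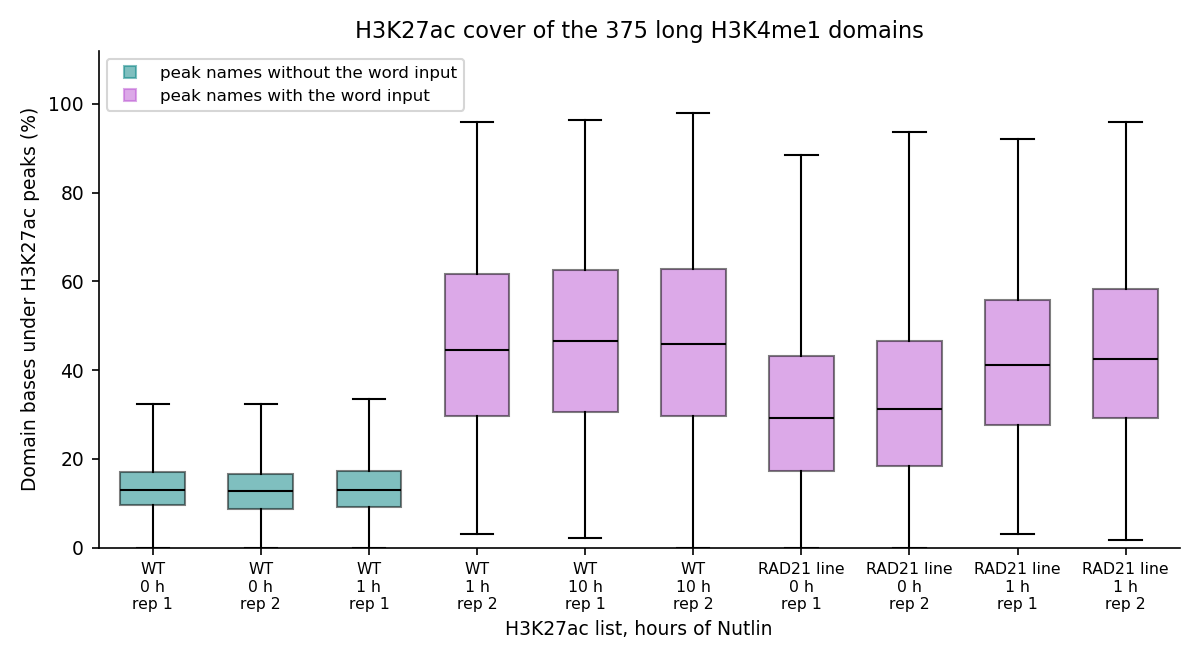
Percent of bases under H3K27ac peaks in the 375 domains for each of the 10 lists, with boxes at the quartiles and the median and whiskers over the full range. The 3 lists whose peak names lack the word input have medians of 12.7 to 13.1%, and the 7 others 29.2 to 46.6%.

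The domains differed from shorter regions in the lists that gave more cover. Of their summed length, 12.3% was covered at WT 0 h (mean of 2 lists), about as in the 10 to 20 kb class (13.1%) and in all other regions called in both lists (12.1%). At WT 10 h the values were 47.9%, 37.03% and 22.7%. The untreated RAD21 line had 32.9%, 27.1% and 18.5%, and after 1 h 43.5%, 37.03% and 25.6%. The WT 1 h lists differed, with 46.8%, 36.7% and 23.2% in replicate 2, named with input, and 12.8%, 13.5% and 12.6% in replicate 1, named without it. Thus cover was higher in longer regions in the 7 lists that carry the word, and not in the 3 without it. In the 3 lists without the word 10.9 to 11.7% of summits inside domains lay within 1 kb of a coding start, and in the 7 others 6.92 to 7.69%.

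At 1 h in WT cells no domain passed the limma test over all 10 H3K27ac lists, with 19 at an unadjusted p under 0.05 (5.07%, against 9.28% of all 8093 regions tested). Of all regions 0.0371% were called higher and 0% lower. In simulated data, in which all lists of a region had the same spread, this comparison recovered 2% of changes of 10 percentage points and 45% of changes of 30 points. The real WT 1 h lists differed far more than that. With a term for the naming of peaks no domain was called either (background 0.395% and 0.0247%). Cover was higher in both 1 h lists than in both 0 h lists in 157 domains and lower in 2 (background 37.9% and 2.78%). The 2 lists of 1 h carried different peak names and gave different values. Without replicate 1 of 1 h 355 domains were called higher (94.7%), but so were 64.4% of all regions tested, and without replicate 2 none. Within the lists without the word input, replicate 1 of 1 h lay above both 0 h lists in 158 domains and below both in 116 (background 40.2% and 30.2%), with a median difference of 0.216 percentage points.

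At 10 h in WT cells 276 of 375 domains (73.6%) gained H3K27ac cover by the same fit and none lost it, against a background of 33.8% higher and 0.667% lower. The median difference was 32.1 percentage points in the domains and 12.1 over all regions. Cover did not overlap between the groups and was higher at 10 h in 367 domains and lower in 3 (background 77.2% and 4.67%). With a term for the naming of peaks, 7 domains were called higher and 2 lower (background 0.939% and 1%), and leaving out any 1 of the 4 lists of this comparison (either replicate of 0 h or of 10 h) left 7 to 15 higher calls, or 1.87% to 4% of domains against 1.34% to 4.44% of all regions. Within the lists that carry the word, 10 h can be set only against replicate 2 of 1 h. Both 10 h lists were above it in 156 domains and below it in 180 (background 31.4% and 48.4%), with a median difference of −0.49 percentage points.

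The 3 largest called gains at 10 h were in the domains named for ERRFI1, TKT and PDP1. At ERRFI1, a feedback inhibitor of EGFR, cover was 2.49% and 1.67% at WT 0 h, 3.74% and 66.0% at 1 h and 89.5% and 88.3% at 10 h, and in the RAD21 line 50.5% and 49.8% at 0 h and 92.1% and 96.0% at 1 h. The difference at 10 h was 86.8 ± 16.6 percentage points (SE, limma adjusted p = 0.00797). TKT, transketolase of the pentose phosphate pathway, had 4.64% and 6.29% at 0 h, 5.63% and 51.5% at 1 h, and 89.2% and 92.5% at 10 h, with a difference of 85.4 ± 13.9 (SE, limma adjusted p = 0.0043). In the RAD21 line TKT was already at 78.4% and 79.9% at 0 h. PDP1 encodes a phosphatase that activates pyruvate dehydrogenase, and this domain passes the end of the gene and covers 11.5% of it. Its cover was 11.7% and 9.18% at 0 h, 14.2% and 88.95% at 1 h, and 93.7% and 94.3% at 10 h. The difference at 10 h was 83.6 ± 20.1 (SE, limma adjusted p = 0.0164). In these 3 domains the SD between lists was 32.4 to 52.8 percentage points at WT 1 h and at most 6.97 in any other group. The SEs and adjusted p-values given here thus rest mainly on the gap between the WT 1 h lists, not on the spread within the compared groups.

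Inside the lists named with input a few domains still stood far from replicate 2 of WT 1 h. They were chosen after their values were seen, and with 1 list at 1 h there is no test. YWHAE, a 14-3-3 adaptor, was at 5.28% in that list and at 59.9% and 45.0% at 10 h. ANKRD11, a chromatin regulator, was at 18.7% and then 62.7% and 55.2%. YWHAE was also among the 3 domains with the lowest untreated cover (0.308% and 0.290%), with AKAP12, a scaffold of protein kinase A (0% in both lists), and TOP1, topoisomerase I (0.276% and 0.295%). In the other direction LMNA, which encodes lamins A and C, was at 59.2% in replicate 2 of 1 h and at 38.3% and 34.4% at 10 h. ABCC3, an organic anion exporter, was at 44.1% and then 23.9% and 24.6%.

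The highest untreated cover was at MNT, a MAX-binding repressor (32.4% and 32.3%), in VTI1A, which encodes a SNARE protein (30.7% and 29.5%), and at SLC22A18 beside CDKN1C, a cyclin-dependent kinase inhibitor gene (24.1% and 27.2%). At 10 h they were at 76.4% and 79.8%, 94.0% and 97.9%, and 44.6% and 49.7%.

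In the RAD21 line, whose 4 lists all carry the word input in their peak names, cover was higher at 1 h than at 0 h in most domains. Both 1 h lists were above both 0 h lists in 310 domains (82.7%) and below them in 17, against 68.3% and 4.62% of all regions. The median difference was 9.36 percentage points, and 7.85 over all regions. In the fit over 10 lists 14 domains (3.73%) were called higher and none lower, fewer than the 10.5% and 0.42% of all regions. Without replicate 1 of 1 h 3 domains (0.8%) were called, and without any 1 of the 3 other lists of the RAD21 line none, against 0.915% to 3.48% of all regions called higher when 1 of the 4 was left out. With these 4 lists fitted alone, which was added after the values were seen, 165 domains (44%) were higher and 1 lower (background 35.8% and 1.07%). With a term for the naming of peaks 241 were higher and 7 lower (background 46% and 1.53%). The fit over 10 lists takes much of its spread from the disagreeing WT 1 h lists. Between the lists of a group, the SD of median cover was 22.2 percentage points at WT 1 h and 0.114 to 1.49 in the other groups.

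The 3 largest calls in the RAD21 line were near KLF14, in DCBLD2 and in MACF1. In the LINC-PINT domain near KLF14 (chr7:130516327-130541497), cover was 25.8% and 21.5% at 0 h and 67.0% and 71.5% at 1 h, a difference of 45.6 ± 12.6 percentage points (SE, limma adjusted p = 0.0449). In DCBLD2, a transmembrane receptor-like protein, it was 12.5% and 14.3% and then 50.3% and 58.7%, with a difference of 41.1 ± 8.09 (SE, limma adjusted p = 0.0127). MACF1, a linker of actin and microtubules, went from 14.5% and 14.1% to 47.3% and 48.8%. In WT cells the same MACF1 domain was at 12.8% and 15.8% at 0 h, 15.6% and 46.3% at 1 h, and 33.3% and 29.98% at 10 h. The MACF1 difference in the RAD21 line was 33.7 ± 8.17 (SE, limma adjusted p = 0.0284). In these 3 domains the SD between lists was 21.1 to 32.1 percentage points at WT 1 h and at most 5.98 in any other group. The SEs given here thus rest mainly on the gap between the WT 1 h lists. With the 4 RAD21 lists alone they were 2.49 to 3.74.

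The gene lists were described in 24 pairs of a gene and a domain. Of these 17 were called higher at WT 10 h and none lower, with 7 of 9 among the receptors, 2 of 3 p53 targets, 3 of 3 intestinal factors, 2 of 4 MAPK and AP-1 genes, 2 of 3 TGF-β and BMP genes and 1 of 2 Wnt genes. That share resembles the 276 of 375 over all domains. At WT 1 h and in the RAD21 line the fit over 10 lists called none of the 24, and with the 4 RAD21 lists alone 10 were higher and 1 lower. In the MET domains cover went from 6.88% and 4.84% to 59.99% and 66.5%, and from 7.46% and 8.34% to 67.4% and 53.4%. At BCL2L1 it went from 10.9% and 12.7% to 85.1% and 86.9%, and at the GDF15 domain from 16.5% and 19.3% to 67.5% and 66.5%. Each of these 4 was called by limma (adjusted p = 0.0099, 0.0152, 0.0133 and 0.0133), under the naming limit given above. Their covers in replicate 2 of 1 h were already 55.0%, 57.5%, 73.9% and 54.9%. TGFA, the remaining p53 target, was at 8.97% and 7.52% at 0 h and at 12.6% and 12.8% at 10 h, and did not pass (limma adjusted p = 0.19). SMAD6, an inhibitor of BMP signalling, was at 6.59% and 7.22% and then 5.43% and 6.57%, the only listed domain with a negative difference (limma adjusted p = 0.745). CDH1 was at 12.2% and 13.1% and then 29.5% and 29.2% (limma adjusted p = 0.0799).

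EHF and TCF7L2, both intestinal transcription factors, are given in every list. At EHF, an epithelial ETS factor, cover was 11.1% and 7.73% at WT 0 h, 11.5% and 52.8% at 1 h, and 61.5% and 62.0% at 10 h. In the RAD21 line it was 7.45% and 9.33% at 0 h and 11.5% and 11.1% at 1 h, under the 52.8% to 62.0% of the WT lists whose names carry input. At 0 h the EHF values of the WT and RAD21 lists overlapped. At TCF7L2 the RAD21 line was at 35.9% and 45.1% at 0 h and at 19.9% and 23.2% at 1 h. This difference was not called in the fit over 10 lists (limma adjusted p = 0.0786) and was the 1 lower call with the 4 lists alone (limma adjusted p = 0.0232). In WT cells TCF7L2 was at 4.68% and 4.15% at 0 h, 4.38% and 23.7% at 1 h, and 39.5% and 36.6% at 10 h. The difference between the lines was not tested, since no untreated WT list shares the form of name.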

How the data were processed

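Peak lists of H3K27ac (10) and H3K4me1 (6) were used, grouped by the labelled cell line, mark and Nutlin-3a time. The 10 input samples were not analysed here. By the study's methods and the submitters' processing notes, reads were trimmed (Trim Galore 0.6.6), mapped to GRCh37 (Bowtie2 2.3.2), stripped of low-quality, blacklisted and duplicate reads, and passed to MACS2 2.2.7.1 with input as control, per library, as narrow peaks (H3K27ac) or broad peaks (H3K4me1). The authors deposited, for each peak, its position, a fold enrichment ratio over local background, and a −log10 p-value and −log10 q-value. These depend on library depth, so only positions and a minimum −log10 q-value (5 for H3K27ac and 2 for H3K4me1, as alternatives) entered comparisons between lists. The lists hold no read counts, and the depth of each library was not used here. Peak length and cover can therefore move with depth or peak calling as well as with the mark.

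Both 0 h H3K4me1 lists were merged where peaks overlapped. Cover was the percent of a region's bases under peaks of a list. Cover was tested with limma 3.58.1 (R 4.3.3; lmFit, eBayes with a trend) over regions called in both lists that spanned at least 5 kb, in 1 fit over all 10 H3K27ac lists and 1 over the 4 later H3K4me1 lists, with Benjamini-Hochberg adjusted p under 0.05. The fits were tested on simulated data with known changes. For WT 1 h, WT 10 h, the RAD21 line and H3K4me1, changes of 10 percentage points were recovered in 2%, 5%, 2% and 0% of changed regions. Changes of 30 points were recovered in 45%, 56%, 39% and 37%. Of the calls in the simulated data, 4.08%, 7.58%, 8.89% and 5.13% were false, which does not measure false calls in the real lists. A lack of calls therefore does not show a lack of change. An exact permutation test of 2 lists against 2 cannot go below p = 0.333 and was not run. Wilson intervals cover counting error only.

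Domains named in the text were those with the 10 longest untreated peaks, the 3 largest falls and rises of peak length at each time, the 3 highest and lowest untreated H3K27ac covers, the 3 largest called changes in each direction, the 2 on each side of the 20 kb limit, and those touching a listed gene. The members and gene lists were chosen with earlier results of these data known. Alternatives covered the length limit, −log10 q-value, scale, region size, replicate block, peak name term and leaving out each list. Gene positions come from the GENCODE annotation lifted to GRCh37.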

Additional observations from a re-analysis of the deposited data

How the results depend on the processing

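Of 87 alternative values, 66 stayed on the same side as the main value and within its spread or 1.5 times its count, 21 moved and none reversed. The 66 overstate stability. For the 1 h H3K27ac gain the spread includes the gap between the disagreeing WT 1 h lists, so 0.269 and 31.7 against 16 points counted as staying. Counts of 0 against 0 counted as staying too. A limit of 15 kb gave 700 domains and one of 30 kb 160, while the same rule on the 1 h lists gave 424 and on the 10 h lists 323. For WT 1 h against 0 h the count of called domains was 0 to 355 when 1 list was left out, with 355 only without replicate 1 of 1 h. For WT 10 h against 0 h (276 calls) it was 9 with a term for the naming of peaks and 7 to 15 when 1 list was left out, and 358 with no WT 1 h list, an alternative added after the values were seen. For the RAD21 line (14 calls) it was 23 with H3K27ac peaks at −log10 q of at least 5, 6 on the arcsine scale, 248 with a term for the naming of peaks, 0 to 3 when 1 list was left out, and 166 with its 4 lists alone, also added after the values were seen. No alternative called a domain in H3K4me1 at 10 h against 1 h. The share of long peaks kept, 84.5% at 1 h and 76.0% at 10 h, became 71.6% and 87.3% when peaks were picked at that time and followed back to 0 h, so the direction between the times depended on where peaks were picked. The 10 h gain of median H3K27ac cover (33.4 percentage points) was 30.7 with peaks at −log10 q of at least 5, 35.6 as a share of summed length, and 35.2 over bases shared by both long 0 h peaks. The 1 h gain of 16 points fell to 0.269 without replicate 2 of 1 h and was 31.7 without replicate 1. Where not stated, the cause of these moves was not tested.

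With a replicate block the counts of called domains were 0, 282, 18 and 0 for WT 1 h, WT 10 h, the RAD21 line and H3K4me1, against 0, 276, 14 and 0. Samples of the same number did not deviate together, with correlations of −0.0747 to 0.163 over 13 pairs of groups and 1 above 0.1, so the numbers were not read as a pairing.

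The lists hold no read counts, so no result was weighed by depth, and cover counts bases called as peak, not signal.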
